A study of Homo sapiens with 8 samples.

Results

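The subunits of the oxidative phosphorylation machinery were followed in HepG2 cells, a line from a human liver tumour, in which XBP1 had been knocked down. The members were the protein-coding rows of the count table that lie on the mitochondrial genome, plus those whose RefSeq symbol starts with NDUFA, NDUFB, NDUFC, NDUFS or NDUFV and a number, is SDHA, SDHB, SDHC or SDHD, or starts with UQCR, COX4 to COX8, ATP5F, ATP5M or ATP5P. This rule found 95 of the 18555 rows: 13 mitochondrially encoded genes and 82 nuclear ones. The mitochondrial genes encode 7 subunits of complex I, 1 of complex III, 3 of complex IV and 2 of complex V. The nuclear genes comprise 36 members for complex I, 4 for complex II, 9 for complex III, 15 for complex IV and 18 for complex V. Of 99 RefSeq genes with a fitting name, COX4I2, COX6A2 and the readthrough genes ATP5MF-PTCD1 and NDUFC2-KCTD14 were not analysed here. CYC1, NDUFAB1 and the genes formerly named NDUFA4 and NDUFA4L2, which RefSeq now lists as COXFA4 and COXFA4L2, are outside the rule and are given separately.

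The study compared 2 groups of 3 RNA-seq libraries: cells transfected with the Allstar control siRNA (siNC) and cells transfected with an siRNA specific for XBP1 (siXBP1). The cells of all 6 libraries, controls included, received 30 nM thapsigargin for 3 hours starting 2 days after transfection, so every value describes cells under stress of the endoplasmic reticulum, and none describes untreated cells. Thapsigargin inhibits the pump that loads this compartment with calcium, and XBP1 encodes a transcription factor of the unfolded protein response. The comparison asks what lower XBP1 does to mRNA levels in stressed cells.

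Oxidative phosphorylation is the final stage of respiration in the inner mitochondrial membrane. Complexes I and II take electrons from NADH and succinate, complex III passes them to cytochrome c, complex IV hands them to oxygen, and the proton gradient built by complexes I, III and IV drives ATP synthase, complex V. Complex II is encoded in the nucleus alone, whereas the other complexes mix nuclear subunits with subunits that mitochondria transcribe from their own circular DNA, so their assembly draws on both genomes.

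Total counts ran from 38209972 to 38890070 per library. XBP1 mRNA stood at 552, 501 and 500 counts per 1000000 of the library total (CPM) in siNC-1 to siNC-3 and at 290, 299 and 276 CPM in siXBP1-1 to siXBP1-3. This was a log2 fold change of -0.84 (SE 0.08, edgeR adjusted p = 0.0331). The groups did not overlap, but the call was lost with upper-quartile scaling (edgeR adjusted p = 0.0546) and when siNC-2, siNC-3, siXBP1-1 or siXBP1-2 was left out (edgeR adjusted p = 0.175, 0.213, 0.475 and 0.284). The first principal component held 60.6% of the variance over 11528 genes and set siNC-1 (score 0.641) against siXBP1-3 (-0.649), with the other 4 libraries between -0.289 and 0.24, so the largest axis was not the group. Of the hepatocyte markers, AFP, TF, SERPINA1 and HNF4A were at most 0.155, 0.104, 0.416 and 0.523 CPM in any library. Markers of other epithelial lines summed to 4171 to 5685 CPM, almost all of it KRT17 and KRT7. Of the 7 only these and KRT14 reached a mean of 1 CPM, while CDH1, EPCAM, KRT5 and TP63 were at most 0.624, 0.103, 0.103 and 1.15 CPM in any library. The mesenchymal markers summed to 1306 to 1461 CPM, most of it VIM (mean 1176 CPM) and CDH2 (mean 167 CPM). COL1A1 and PDGFRB had means of 41.9 and 5.57 CPM, and COL1A2 was at most 0.052 CPM in any library. Leukocyte markers stayed under 1 CPM in sum and endothelial markers at 6.32 to 9.33 CPM. The line label is therefore not backed by these liver markers, and "HepG2" is used below as the label only.

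No subunit of any complex differed between the groups by the planned test. Of the 95 members, 92 passed the filter on low counts. None of the 92 was called by edgeR's quasi-likelihood test at an adjusted p under 0.05, where 0.00697% of all 14337 genes tested were called, namely XBP1 alone. None had an unadjusted p under 0.05 either, against 3.61% of all genes (1.9% higher and 1.7% lower), and DESeq2 and limma-voom called none as well. The smallest unadjusted p among the members was 0.0952, for ND4, and the smallest adjusted p was 0.9998 (edgeR). The 3 libraries of 1 group lay above all 3 of the other in 3 of 92 members (ND4, COX1 and COX7A2L, all higher in siXBP1) and below them in none, while 8.75% of all genes tested showed no overlap (5.01% higher and 3.74% lower). The 95% interval of the log2 fold change lay within a 1.5-fold change either way for 87 of the 92 members, against 9513 of all 14337 genes tested. The 5 exceptions among the members were NDUFB7, NDUFA3, SDHD, COX6B2 and COX7B2. Because bulk RNA was measured as shares of the library, fewer cells of a type and less RNA per cell cannot be told apart.

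The 13 mitochondrial mRNAs together took 4.64% to 5.16% of all counts. Per kilobase of gene, the level of COX2 was 9649 ± 405 CPM per kb and that of COX1 was 9644 ± 478 CPM per kb (SD over the 6 libraries, as for the levels that follow). These genes encode the catalytic core of cytochrome c oxidase, and their levels overlapped. COX3, the third core subunit of complex IV, followed at 8143 ± 432 CPM per kb, with all 6 libraries under the lowest of COX1 and COX2. ATP6, which forms part of the proton path of ATP synthase, reached 5739 ± 196 CPM per kb, and ND4, a proton-pumping subunit of complex I, 5178 ± 327 CPM per kb. The libraries of ATP6 and ND4 overlapped.

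The remaining mitochondrial genes were lower, and neighbours in the order overlapped except ND1 and ND5. ND2 stood at 2087 ± 79.5, ND4L at 2084 ± 338, CYTB at 1869 ± 58.7 and ND1 at 1868 ± 54.6 CPM per kb. ND5 stood at 1447 ± 142, ND3 at 1302 ± 92.9, ND6 at 1250 ± 67.0 and ATP8 at 1091 ± 167 CPM per kb. ND6 is the only protein of this genome encoded on the light strand, and its mRNA level did not stand apart from that of ND3 or ATP8. ATP8 and ATP6 share 46 bases (MT:8527-8572 in GRCh38.p14) and ND4L and ND4 share 7 bases (MT:10760-10766), and each pair is carried on 1 messenger. How reads in the shared bases were assigned is not given in the sources used here, so the levels of ATP8 and ND4L are uncertain. How strand was handled in counting is not given either, so the level of ND6, on the other strand, is also uncertain.

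**Figure D1:**
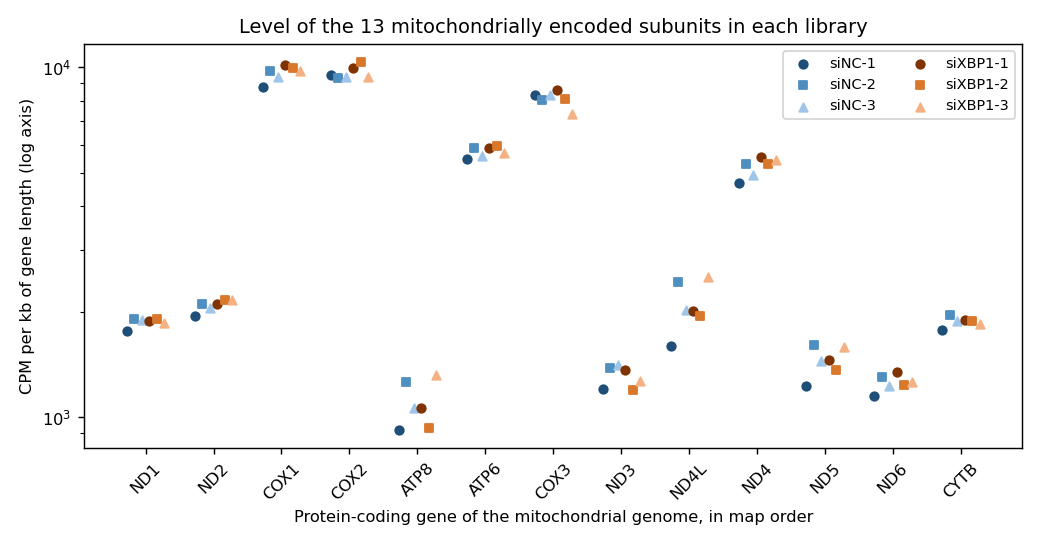
Level of each mitochondrially encoded subunit, in CPM per kilobase of gene on a log axis, in map order. Each point is 1 library (blue for siNC, orange for siXBP1). COX1, COX2 and COX3 lie highest, ATP6 and ND4 next, and the libraries of the groups are interleaved for most genes.

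Between the groups, no mitochondrial mRNA passed the test. Estimates were higher in siXBP1 for 11 of 13 genes and lower for 2, with a median log2 fold change of 0.05, against 0.01 over all genes tested. ND4 read 6420, 7272 and 6772 CPM in siNC-1 to siNC-3 and 7607, 7281 and 7463 CPM in siXBP1-1 to siXBP1-3. The siXBP1 libraries were all above the siNC ones, the closest pair being siNC-2 and siXBP1-2, and the log2 fold change was 0.13 (SE 0.07, edgeR adjusted p = 0.9998).

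COX1 showed the same layout, at 13570, 15060 and 14510 CPM in siNC and 15600, 15380 and 15090 CPM in siXBP1. The siXBP1 libraries again lay above the siNC ones, with siNC-1 lowest, and the log2 fold change was 0.10 (SE 0.07, edgeR adjusted p = 0.9998). COX3, its partner in the same complex, had an estimate of the other sign. It read 6539, 6328 and 6531 CPM in siNC and 6772, 6361 and 5772 CPM in siXBP1, a log2 fold change of -0.04 (SE 0.08).

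Of the other complex I genes, ND3 had an estimate of -0.06 and ND1, ND2, ND4L, ND5 and ND6 had estimates of 0.02, 0.08, 0.10, 0.04 and 0.06 on the log2 scale. CYTB, the mitochondrial subunit of complex III, had an estimate of 0.01 (SE 0.07). COX2 had 0.07, ATP6 0.05 and ATP8 0.03. siNC-1 was the lowest library for 10 of the 13 genes, and without it the median log2 fold change of the mitochondrial genes was -0.016.

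The promoters of the nuclear members were searched for letter strings that the selection did not use. RefSeq promoter windows of GRCh38.p14, from 250 bases before to 50 bases after a start, were found for 67 of the 82 nuclear members and read on both strands. The string GCGCATGC, bound by the respiratory regulator NRF1 (nuclear respiratory factor), was held by 14 members, which is 20.9% of the 67, against 6.20% of 11224 other tested genes and 3.68% of 27305 genes of the whole promoter table. AAGATGGC, a string of the factor YY1, was held by 12 members (17.9%, against 6.05% and 3.52%). CCGGAAG, read by ETS factors such as GABPA, was held by 21 members (31.3%, against 21.2% and 12.2%). CCAAT was in 24 member promoters (35.8%, against 43.0% of other tested genes and 39.7% of all) and GGGCGG, the GC box, in 43 (64.2%, against 74.9% and 48.3%). TGACGTGG, a string of the unfolded protein response element to which spliced XBP1 binds, was in none of the 67 windows, and in 1.21% of other tested genes and 0.927% of all. With so rare a string, its absence from 67 windows does not set the members apart. No other string for XBP1 was searched. These are matches of letters within windows, not measured binding.

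Of the stretches with the NRF1 string, those of 6 genes are shown, to cover complexes I, II, IV and V and to include SDHD and NDUFA5, whose library pattern differs from that of the other nuclear members. They are printed 5′ to 3′ on the strand of the gene with the string in capitals. They lie at chr7:123557949-123557996 (minus strand, a start inside the longest NDUFA5 span), chr19:1383814-1383861 (plus strand, NDUFS7), chr1:17054205-17054252 (minus strand, SDHB), chr11:112086743-112086790 (plus strand, SDHD), chr12:120437919-120437966 (plus strand, COX6A1) and chr10:7788135-7788176 (plus strand, ATP5F1C), all upstream of the start and outside the transcript that begins there.
NDUFA5: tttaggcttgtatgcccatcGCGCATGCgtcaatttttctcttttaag
NDUFS7: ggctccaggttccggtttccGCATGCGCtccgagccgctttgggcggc
SDHB: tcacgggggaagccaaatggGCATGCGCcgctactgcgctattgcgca
SDHD: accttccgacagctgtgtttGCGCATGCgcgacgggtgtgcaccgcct
COX6A1: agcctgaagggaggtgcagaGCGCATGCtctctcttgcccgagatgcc
ATP5F1C: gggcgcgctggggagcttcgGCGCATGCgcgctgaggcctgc
NDUFS7 and SDHB carry the string in the reverse orientation alone. SDHD and ATP5F1C carry it in both orientations, overlapping, with only the forward match in capitals. Members with and without the NRF1 string had median log2 fold changes between the groups of 0.00 (14 members) and -0.04 (52 tested members), with no test of that difference.

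All nuclear subunits together had a median log2 fold change of -0.02, with 27 estimates above 0 and 52 below, that is 65.8% below against 47.2% of all genes tested. Complex I, which oxidises NADH and is the largest of the complexes, had 12 estimates above and 24 below 0, with a median of -0.04. Its 7 nuclear core subunits, which carry the flavin and the iron-sulfur clusters or join them to the membrane arm, had 3 above and 4 below (median 0.00), and the 29 accessory members 9 above and 20 below (median -0.04). NDUFC2, an accessory membrane subunit with the highest mean CPM of the nuclear complex I members, read 257, 200 and 225 CPM in siNC and 219, 213 and 164 CPM in siXBP1. Its groups overlapped and its log2 fold change of -0.19 (SE 0.13) was the lowest of the complex. NDUFV1, which holds the flavin that accepts the electrons of NADH, followed at -0.16 (SE 0.14).

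The highest estimate of nuclear complex I was that of NDUFA5, an accessory subunit of the peripheral arm. It read 38.2, 51.4 and 53.0 CPM in siNC and 41.4, 53.5 and 65.1 CPM in siXBP1. Low values in siNC-1 and siXBP1-1 and a high value in siXBP1-3 gave groups that overlapped, and the log2 fold change was 0.17 (SE 0.18). NDUFS4, a late-assembling accessory subunit, had 0.13 (SE 0.13) at 17.0 to 22.7 CPM.

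Complex II, succinate dehydrogenase, also works in the citric acid cycle. Its flavoprotein SDHA read 264, 235 and 232 CPM in siNC and 253, 255 and 214 CPM in siXBP1, and the iron-sulfur subunit SDHB read 121, 101 and 104 CPM and 107, 109 and 91.1 CPM. For both, siNC-1 was highest and siXBP1-3 lowest, and the log2 fold changes were -0.02 (SE 0.10) and -0.08 (SE 0.11). The membrane anchor SDHC was even across all 6 libraries, from 97.0 to 104 CPM (log2 fold change 0.04, SE 0.09). The other anchor, SDHD, read 42.2, 41.7 and 47.5 CPM in siNC and 35.4, 47.7 and 65.3 CPM in siXBP1. It was highest in siXBP1-3, where SDHA and SDHB were lowest, and its log2 fold change of 0.18 (SE 0.19) rests on that library, since it was -0.09 without it. SDHA shares sequence with pseudogenes, of which SDHAP1, SDHAP2, SDHAP3 and SDHAP4 had mean counts of 12.3, 8.14, 5.81 and 9.66 CPM, so its value may include or lack some of their reads.

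Complex III, the cytochrome bc1 complex, had 2 nuclear estimates above and 7 below 0, with a median of -0.02. Its core proteins UQCRC1 and UQCRC2 had log2 fold changes of -0.06 (SE 0.12) and 0.03 (SE 0.10). UQCRC1 read 220, 188 and 195 CPM in siNC and 206, 209 and 164 CPM in siXBP1, with overlap of the groups. The small subunit UQCR10 had the lowest estimate, -0.12 (SE 0.13). UQCRHL, at 5.22 to 7.97 CPM, had the highest, 0.06 (SE 0.22), and as a near copy of UQCRH its counts are uncertain.

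Complex IV, cytochrome c oxidase, has several subunits with tissue-specific alternatives, and where both versions had a row these libraries held mainly the widely expressed one. COX4I1, which binds ATP as a regulator of the enzyme, read 252, 218 and 211 CPM in siNC and 220, 254 and 194 CPM in siXBP1. COX6A1 ran from 110 to 164 CPM, COX6B1 from 60.2 to 85.8 CPM and COX7A2 from 58.9 to 75.8 CPM, with log2 fold changes of -0.01, -0.09 and 0.00. The heart and muscle form COX7A1 had 15, 0 and 0 counts in siNC and 2, 4 and 0 counts in siXBP1. The testis forms had few counts: COX8C had 6 counts in siXBP1-3 and 0 in the other libraries, COX6B2 had 51, 20 and 44 counts in siNC and 21, 22 and 28 counts in siXBP1, and COX7B2 had 2 to 15 counts. COX7A1 and COX8C were not tested, and the log2 fold changes of COX6B2 (-0.68, SE 0.45) and COX7B2 (0.39, SE 0.77) rest on these few counts.

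Among the well expressed genes of complex IV the ends of the range were COX8A and COX7A2L. COX8A, one of the small membrane subunits, read 77.1, 59.1 and 69.2 CPM in siNC and 64.9, 64.2 and 45.7 CPM in siXBP1, a log2 fold change of -0.23 (SE 0.16). COX7A2L, which joins complex IV to complex III in supercomplexes, read 69.7, 70.0 and 65.5 CPM in siNC and 75.4, 85.4 and 70.6 CPM in siXBP1. It was the only nuclear member whose groups did not overlap, although siNC-2 and siXBP1-3 lay close together, and its log2 fold change was 0.18 (SE 0.11, edgeR adjusted p = 0.9998). COX7B had -0.17 (SE 0.12). Over the 13 tested members, 3 estimates were above and 10 below 0, with a median of -0.02. Outside the rule, COXFA4, a subunit of the same complex, had -0.02 (SE 0.16). Its hypoxia-induced relative COXFA4L2 read 34.5, 23.4 and 23.8 CPM in siNC and 20.8, 17.0 and 19.4 CPM in siXBP1. Its groups did not overlap, but the log2 fold change of -0.51 (SE 0.17) did not pass the threshold (edgeR adjusted p = 0.9998).

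Complex V, ATP synthase, had 8 estimates above and 9 below 0 and a median of 0.00. ATP5F1B, the catalytic beta subunit of the head, read 997, 887 and 890 CPM in siNC and 933, 1011 and 818 CPM in siXBP1, a log2 fold change of 0.00 (SE 0.10). The 5 genes of the head and central stalk had 3 estimates above and 2 below 0 (median 0.02), from ATP5F1D (-0.13, SE 0.17) to ATP5F1E (0.04, SE 0.17), both of the central stalk. The 4 genes of the peripheral stalk had 3 above and 1 below (median 0.02), with ATP5PB, its main rod, at 0.06 (SE 0.09).

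The proton-carrying c ring is built from identical mature proteins encoded by ATP5MC1, ATP5MC2 and ATP5MC3. Their estimates were all below 0, at -0.10 (SE 0.16), -0.03 (SE 0.14) and -0.15 (SE 0.11). All 3 were highest in siNC-1 and lowest in siXBP1-3, and their groups overlapped. The untested member of the complex, ATP5MGL, a relative of the subunit g gene ATP5MG, had 2 counts in siXBP1-2 and 0 elsewhere.

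**Figure D2:**
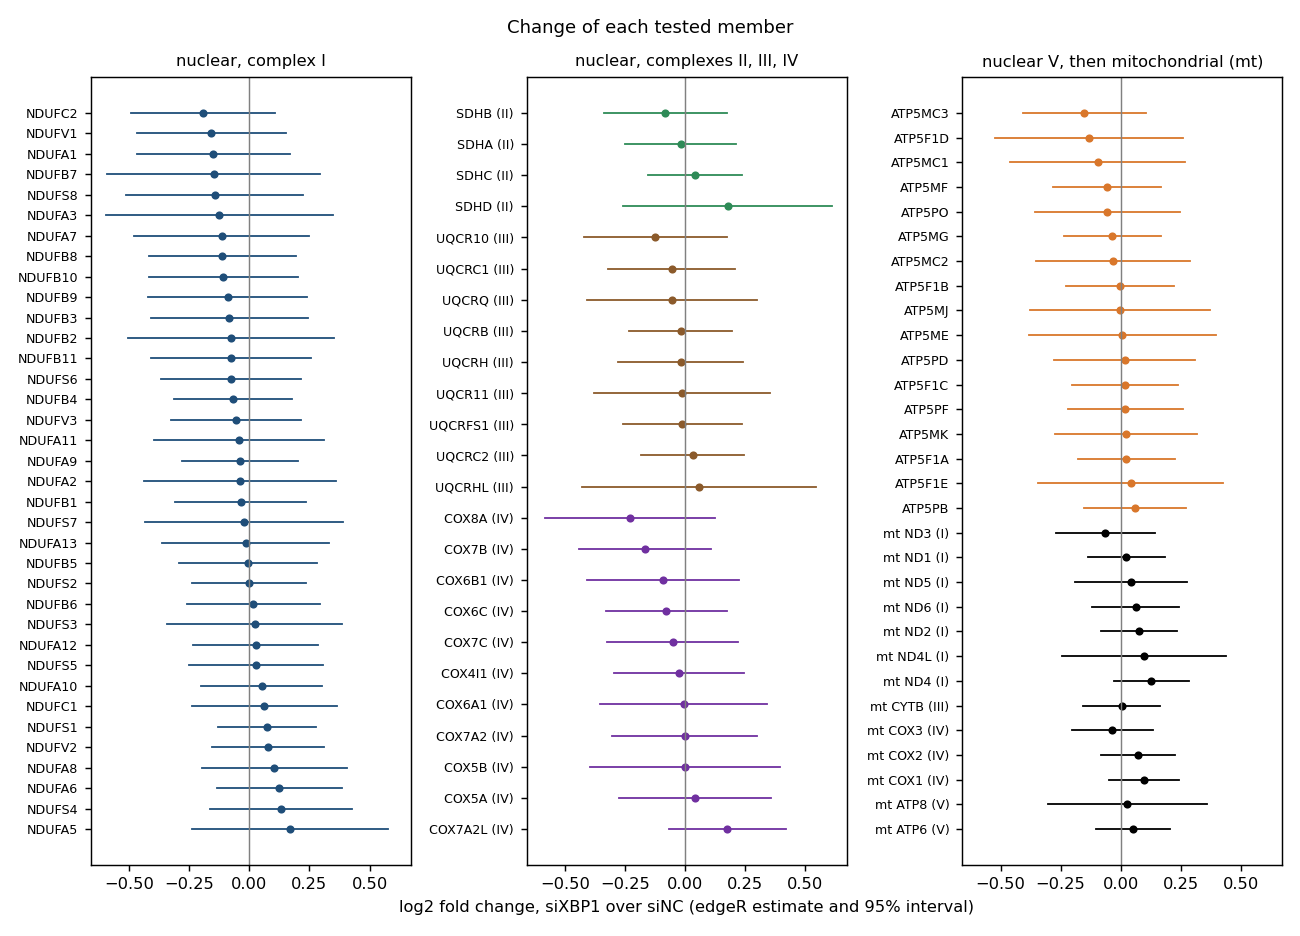
Log2 fold change of siXBP1 over siNC for 90 of the 92 tested members (points, edgeR) with 95% intervals (lines), grouped by genome and complex; COX6B2 and COX7B2, whose intervals run off the scale, are left out. Every interval drawn crosses 0.

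Summed over the subunits, no complex separated the groups. The nuclear subunits of complex I summed to 2779, 2295 and 2380 CPM in siNC and 2457, 2644 and 2122 CPM in siXBP1. Complex IV ran in parallel, at 1240, 1023 and 1026 CPM and 1070, 1199 and 924 CPM. In both, siNC-1 and siXBP1-2 were high and siXBP1-3 low. Complex V summed to 2968, 2588 and 2584 CPM and 2728, 2948 and 2418 CPM, and complex III to 895, 797 and 793 CPM and 833, 884 and 714 CPM. The same libraries stood at the top and bottom. Complex II varied least, at 524, 479 and 483 CPM and 497, 516 and 470 CPM, a ratio of highest to lowest library of 1.12 against 1.34 for complex IV. Part of its variation cancels in the sum, since SDHD was highest in siXBP1-3, where SDHA and SDHB were lowest.

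The mitochondrial subunits did not share that order. They summed to 46400, 50341 and 48687 CPM in siNC and 51574, 50648 and 49731 CPM in siXBP1, with siNC-1 lowest. As a percentage of siNC, the mean over the siXBP1 libraries was 104.5% for the mitochondrial subunits and 98.1% for the nuclear ones. The ratio of mitochondrial to nuclear subunit counts was 5.52, 7.01 and 6.70 in siNC and 6.80, 6.18 and 7.48 in siXBP1. It was lowest in siNC-1 and highest in siXBP1-3, and the groups overlapped.

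**Figure D3:**
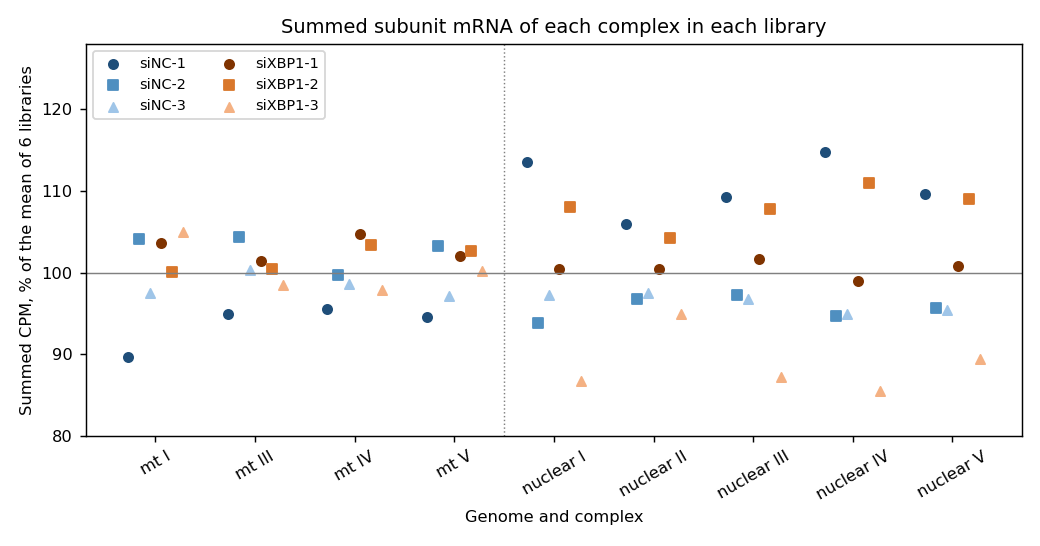
Summed CPM of the subunits of each complex in each library, as a percentage of the mean over 6 libraries; mitochondrial (mt) genes are left of the dotted line. Among nuclear genes siNC-1 (dark blue circles) is highest and siXBP1-3 (light orange triangles) lowest in every complex, while siNC-1 is the lowest library for each mitochondrial group.

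The nuclear subunits varied together between libraries of the same group. Relative to each gene's own mean, the median nuclear member deviated by 0.20, -0.08 and -0.04 in siNC-1 to siNC-3 and by 0.02, 0.12 and -0.18 in siXBP1-1 to siXBP1-3, on a log2(CPM + 0.5) scale. The highest library was siNC-1 for 49 and siXBP1-2 for 26 of the 79 tested nuclear members, together 94.9%, against 38.4% of all genes tested. The lowest library was siXBP1-3 for 55 of them, 69.6% against 25.9%. The difference of siXBP1-3 from siNC-1 was negative in 74 of 79 (93.7%, against 49.96% of all genes), with a median of -0.37. The mitochondrial ribosomal proteins showed much the same layout: 65 of 76 (85.5%) were highest in siNC-1 or siXBP1-2, 60.5% were lowest in siXBP1-3 and 88.2% were lower in siXBP1-3 than in siNC-1. These shares describe single libraries, and no test was applied to them.

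The 5 members that went the other way between these libraries were NDUFA5 (0.76), SDHD (0.62), NDUFS1 (0.15), SDHC (0.04) and COX7A2L (0.02). NDUFS1, the largest core subunit of complex I, read 87.8, 96.9 and 89.1 CPM in siNC and 95.3, 94.7 and 97.8 CPM in siXBP1. SDHC and SDHD are the membrane anchors of complex II, whose other members SDHA and SDHB were lower in siXBP1-3.

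**Figure D4:**
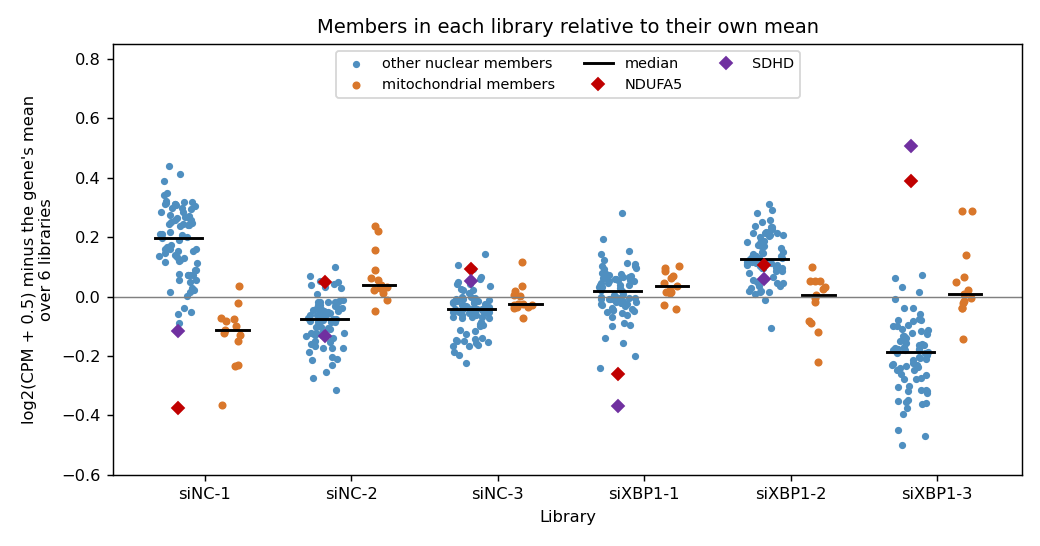
Deviation of each member from its own mean over 6 libraries, in log2(CPM + 0.5), for 77 nuclear members (blue; COX6B2 and COX7B2 are left out) and 13 mitochondrial members (orange), with medians as black bars and NDUFA5 and SDHD as diamonds. Nuclear members lie mostly above 0 in siNC-1 and siXBP1-2 and below 0 in siXBP1-3, where NDUFA5 and SDHD lie far above the others.

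The direction of the nuclear estimates depended on which libraries entered. Without siNC-1 the median nuclear log2 fold change was 0.05, and without siXBP1-3 it was 0.05. With both left out, 74 of 78 nuclear estimates were above 0 (94.9%, against 51.9% of all genes) and the median was 0.13, while the mitochondrial genes had 7 above and 6 below 0. The libraries were picked from the same counts, as the ends of the first component. siNC-1 had the highest median nuclear deviation of its group (0.20) and siXBP1-3 the lowest of its group (-0.18). Leaving both out therefore raises the nuclear estimates by construction. The mitochondrial ribosomal proteins also had 66 of 76 above 0 (86.8%) in that fit, with a median of 0.14. In that smaller fit edgeR called 4.87% of 14416 genes, 1.45% as higher, and 1 member. This was ATP5F1E, the epsilon subunit of ATP synthase, with a log2 fold change of 0.35 (edgeR adjusted p = 0.0197). In all 6 libraries ATP5F1E read 167, 118 and 118 CPM in siNC and 135, 164 and 114 CPM in siXBP1, so the call rests on the removal of the siNC library with the highest value and the siXBP1 library with the lowest. With the first component's score as a covariate, 49 nuclear estimates were above and 30 below 0, the median was 0.03 and no member was called, against 1.23% of all genes.

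The difference between the libraries at the ends moved with the genomic span of the genes. Across the 79 tested nuclear members, Spearman's rho between span and the difference of siXBP1-3 from siNC-1 was 0.65, and across 14313 tested genes with a span it was 0.44. Both are descriptions over genes of the same pair of libraries. The median span was 10460 bases for the nuclear members and 28244 bases for all genes. COX8A and NDUFB7, which are short, lay at the low end, and the longer genes NDUFA5 and NDUFS1 at the high end, while SDHD, a short gene, lay high. The longest members, COX7B2 (few counts), NDUFA10 and NDUFS4, lay between, at -0.12, -0.02 and -0.12. The part of gene span or RNA quality in the library pattern was not tested.

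**Figure D5:**
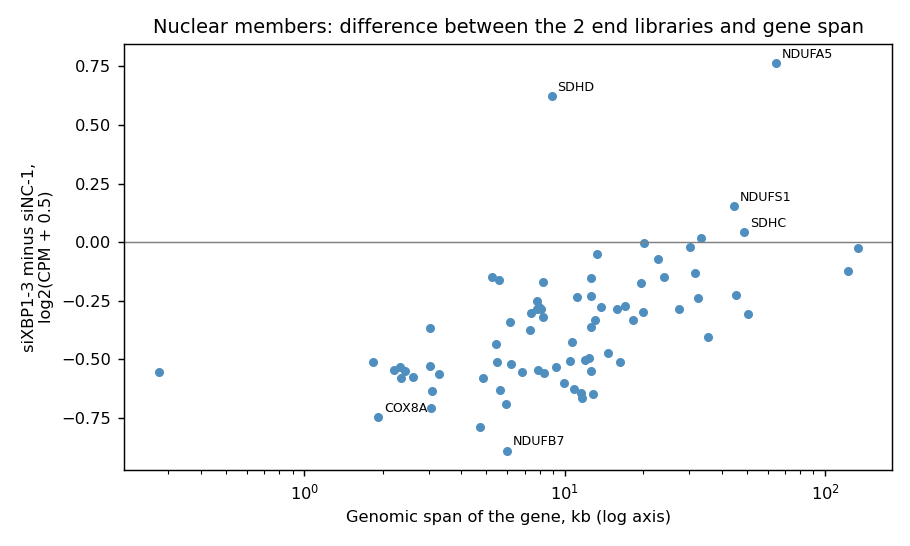
Difference of siXBP1-3 from siNC-1 in log2(CPM + 0.5) against the genomic span of the gene in kb (log axis), 1 point for each of 77 nuclear members (COX6B2 and COX7B2 are left out). Most points lie below 0; SDHD and NDUFA5 lie at 0.62 and 0.76.

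Genes that build and feed the complexes were not called by the planned test either. Each of the lists below had 0 genes called by edgeR and 0 at an unadjusted p under 0.05, and DESeq2 called 0. Of 57 tested assembly factors, 21 estimates were above and 36 below 0 (median -0.02). The most abundant by CPM were ACAD9 (-0.07, SE 0.11) and TIMMDC1 (0.04, SE 0.12), both of which help to assemble complex I. Of 29 genes for the upkeep, transcription and RNA processing of mitochondrial DNA, 14 were above and 15 below (median -0.03), led by LRPPRC (0.06, SE 0.11), which stabilises mitochondrial mRNAs, and ELAC2 (-0.11, SE 0.09), which trims tRNA ends. Of 76 mitochondrial ribosomal proteins, 33 were above and 43 below (median -0.01), with MRPL3 at 0.03 (SE 0.09) and MRPL37 at 0.01 (SE 0.12).

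Of 20 electron carriers and related genes, 7 were above and 13 below 0 (median -0.05). CYCS, cytochrome c itself, read 136, 164 and 170 CPM in siNC and 121, 149 and 215 CPM in siXBP1, high in siXBP1-3 where most subunits were low (log2 fold change 0.05, SE 0.19). HIGD1A, a partner of complex IV, had 0.00 (SE 0.09), NDUFAB1, the acyl carrier protein of complex I, -0.09 (SE 0.13), and CYC1, the cytochrome c1 of complex III, -0.17 (SE 0.16). Of 17 genes of the citric acid cycle and pyruvate dehydrogenase, 8 were above and 9 below (median 0.00). PDHA1 and OGDH had -0.08 (SE 0.08) and -0.10 (SE 0.09). Of 10 regulators of mitochondrial genes, 7 were above and 3 below (median 0.05), with PPRC1, a coactivator of the PGC-1 family, at 0.04 (SE 0.09) and YY1 at 0.08 (SE 0.09). Without siNC-1 and siXBP1-3, which were picked from the same counts, edgeR called 4.87% of all genes and 6 genes of these lists. Called were 2 of 57 assembly factors, NDUFAF1 (log2 fold change 0.49) and SURF1 (0.51). So were 2 of 76 ribosomal proteins, MRPL41 (0.41) and MRPS24 (0.37). The transcription terminator MTERF1 (-0.46) was 1 of 29 in its list and the regulator CREB1 (-0.41) 1 of 10. Of the 20 electron carriers and the 17 citric acid cycle genes 0 were called. The edgeR adjusted p of the called genes ran from 0.0121 (SURF1) to 0.0446 (MTERF1). So few calls do not set the lists apart from all genes.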

How the data were processed

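The deposited table holds read counts per gene, not normalized, for 6 RNA-seq libraries, and its making involved STAR 2.5.2a, featureCounts 1.5.0 and hg38, per the submitters' processing notes. The kit was a stranded TruSeq one, per the labels' protocols. How strand and reads shared by genes were handled in counting, and with which annotation, is not given in the sources used here. Both ChIP-seq samples were left out, and 1 marker gene is not reported here. Of 18555 gene IDs, 18526 had a RefSeq name in GRCh38.p14. The columns matched the sample titles, which gave the groups and replicate numbers. The members and lists were chosen with earlier results of these data known.

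Genes were kept with filterByExpr, scaled by TMM and tested two-sided with edgeR 4.0.16 (R 4.3.3), quasi-likelihood, group as the only term, 4 residual degrees of freedom, Benjamini-Hochberg over 14337 genes, threshold 0.05. Intervals used the moderated 9.63 degrees of freedom. CPM are counts per 1000000 of the library total, and a floor of 3 counts is 0.077 to 0.079 CPM. The floor covers counting error at most, as reads lacking molecular identifiers may repeat a molecule. Of counts between 1 and 40, 75.8% to 80.5% were even, as when both mates are counted. In that case 3 counts are fewer than 3 separate fragments, and the floor is too low for counting error as well. Replicate libraries differed beyond sampling noise (chi-square per degree of freedom 9.37 to 54.7). Whether they come from separate cultures is not in the labels, so the spread behind the p-values may be technical. The fitting steps were also run on simulated counts, with a smaller spread than in these data and no axis shared between libraries. That run checks the code alone, and not error rates or power here.

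Named were XBP1, the 13 mitochondrial genes, called members, in each complex the nuclear member with the highest mean CPM and the 2 highest and 2 lowest fold changes, alternative isoforms, the complex II genes, untested members, and in each list the 2 genes with the highest mean CPM. NDUFS1, NDUFB7, NDUFA3, NDUFA10, COX7B, CYC1, NDUFAB1, the SDHA pseudogenes and list genes called without siNC-1 and siXBP1-3 were added after values were seen. The mitochondrial ribosome list, planned by name, was filled then with all protein-coding MRPL and MRPS genes of the table. Alternatives were other scalings and filters, DESeq2 1.42.0, voom of limma 3.58.1, a replicate block, the first component as a covariate, halved counts, a stricter threshold and libraries left out.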

Additional observations from a re-analysis of the deposited data

How the results depend on the processing

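Against 1 gene called by edgeR, upper-quartile scaling called 0, an adjusted p under 0.01 left 0, DESeq2 called 15, the first-component covariate 176, and the fit without siNC-1 and siXBP1-3 called 702. Leaving out single libraries gave 0 to 1. XBP1 stayed between -0.88 and -0.80 on the log2 scale with single libraries left out, and lost its call without siNC-2, siNC-3, siXBP1-1 or siXBP1-2; it also lost it with upper-quartile scaling (-0.85). Members called stayed at 0 under every alternative run except the fit without siNC-1 and siXBP1-3, which called 1 (ATP5F1E).

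With single libraries left out, the mitochondrial median ranged from -0.016 (without siNC-1) to 0.093 (without siNC-2) and the nuclear median from -0.12 (without siXBP1-2) to 0.05 (without siNC-1). The nuclear complex I median was 0.14 without siNC-1 and siXBP1-3, the libraries in which its summed CPM was highest and lowest. Of 703 values of the 40 tested named members under alternatives, 75 had the other sign, spread over 28 members, and 12 members kept 1 sign throughout. Among these were ND4, COX1 and COX7A2L. Their groups did not overlap, so their sign was all but fixed in advance where libraries were left out. The cause of these changes was not tested. Same-numbered libraries correlated at 0.61, -0.38 and 0.45 in their deviations from the group means. These values cannot decide whether the numbers pair the samples. Deviations sum to 0 within each group of 3, and the end libraries siNC-1 and siXBP1-3 alone correlated at -0.77. With the replicate block 1 gene and 0 members were called, and the medians were 0.05 (mitochondrial) and -0.02 (nuclear).

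With 3 libraries a group, precision is limited. XBP1, with an SE of 0.08, barely passed, and the median SE of nuclear members was 0.13. Changes larger than 1.5-fold may therefore also go uncalled, although the 95% intervals of 87 of the 92 members lay within 1.5-fold either way.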

Other observations

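The mitochondrial genome also encodes 2 ribosomal RNAs, which the count table lists and which are not subunits; they were looked at after their values were seen. RNR2, the large ribosomal RNA (MT:1671-3229 in GRCh38.p14), read 7856, 8211 and 8037 CPM in siNC and 9293, 9058 and 8897 CPM in siXBP1. The groups did not overlap, as in 8.75% of all genes tested, and the log2 fold change was 0.18 (SE 0.06, edgeR adjusted p = 0.9998). RNR1, the small ribosomal RNA (MT:648-1601), read 1405, 1295 and 1294 CPM in siNC and 1536, 1587 and 1353 CPM in siXBP1, with overlap of the groups and a log2 fold change of 0.17 (SE 0.09, edgeR adjusted p = 0.9998). When edgeR took the first component's score into the model, the adjusted p was 0.0664 for RNR2 and 0.0696 for RNR1. Without siNC-1 and siXBP1-3 the log2 fold change was 0.18 for RNR2 (edgeR adjusted p = 0.161) and 0.28 for RNR1 (edgeR adjusted p = 0.0343). The fit with the score called 1.23% of all genes and the fit without these libraries 4.87%. Both the score and the libraries left out were taken from the same counts. How much ribosomal RNA the library preparation removed is not given in the sources used here, and its part in these values was not tested.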
